A study of Danio rerio with 2 samples.

Results

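Introns of 151 to 1000 bp were taken from the deposited table of intronic reads in whole zebrafish larvae by their stated length alone, counting rows listed under 1 Refseq gene ID. They were 12014 of 55660 listed introns and lay in 5872 genes. The table lists introns with at least 1 read in both libraries, and beyond that the rule used no read count or fold change. The length range was chosen with earlier results of these data known. The table compares 1 library of wildtype larvae with 1 library of larvae homozygous for clbns841, both at 108 hours post-fertilization. Each library came from a pool of about 60 larvae genotyped singly as homozygous, kept at 28.5 °C and in 0.003% PTU, an inhibitor of pigment formation that both groups received. Poly(A) RNA of the pools was sequenced on SOLiD, so neither library has a replicate, and every p below compares these libraries, not the genotypes.

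Splicing removes introns from transcripts, and an intron still present in polyadenylated RNA is called retained. Most introns are removed by the major spliceosome, while a rare class called U12-type or minor introns is removed by a separate minor spliceosome. The clbn (caliban) mutation is known from background knowledge to lie in rnpc3, a gene whose protein is part of the minor spliceosome. The series asks how intron retention changes in larvae deficient in that kind of splicing. No column gives the class of an intron, so introns of both classes are among those described, and splice sites were not read here because no genome of the build was used.

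The wildtype library held 28309779 reads and the mutant library 25718058. The deposited gene value of rnpc3, which is on a scale per length and per library, was 5.70 in wildtype and 2.5 in the mutant, from 273 and 109 recovered gene reads. Of 12 marker genes of larval tissues, 10 had a gene value, from 83.9 to 10667 in wildtype and from 84.7 to 11017 in the mutant, among them muscle, lens, pancreas, liver, neuron, blood, skin and intestine genes. The pancreas marker prss1 had 2618 and 854, and the lens marker crybb1 had 802 and 331, both lower in the mutant library, and their part in the results was not tested. In pooled larvae, fewer cells of a type and less RNA per cell cannot be told apart.

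Most introns of 151 to 1000 bp were covered thinly. Their median was 5 reads in each library, and 318691 wildtype and 286235 mutant reads fell in them, which was 1.13% and 1.11% of the libraries. Each of the 12014 had at least 1 read in both libraries, because the table lists no others. An intron read in the mutant library alone is therefore not analysed here. Of the 12014, 11898 had a gene value and 3528 in 2134 genes also had 20 or more reads over both libraries (29.4%). The test was run on these 3528. Over all lengths 20223 introns were tested, 36.3% of those listed.

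Retention levels were lower the longer the intron, in both libraries. The measure is the deposited retention coefficient, the reads per unique length of the intron divided by the value of its gene, so that 1 would be an intron covered as densely as the exons. Over the 11898 introns with a gene value the median was 0.0454 in the wildtype library, with quartiles of 0.0194 and 0.104. In the mutant library it was 0.0473, with quartiles of 0.0208 and 0.103. Introns of 151 to 200 bp had a wildtype median of 0.105, those of 201 to 300 bp 0.0738, those of 301 to 500 bp 0.0497, those of 501 to 750 bp 0.0321 and those of 751 to 1000 bp 0.0253. The mutant medians of the same classes were 0.105, 0.0773, 0.0509, 0.0346 and 0.0261. The order was thus the same in both libraries, and the quartile range within each class was several times the gap between the libraries. Introns of up to 150 bp lay above all of these, at 0.173 and 0.176, and introns of 1001 to 5000 bp lay below, at 0.0166 and 0.0172. These are levels of listed introns, and a short intron needs a higher level than a long one to have a read.

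**Figure D1:**
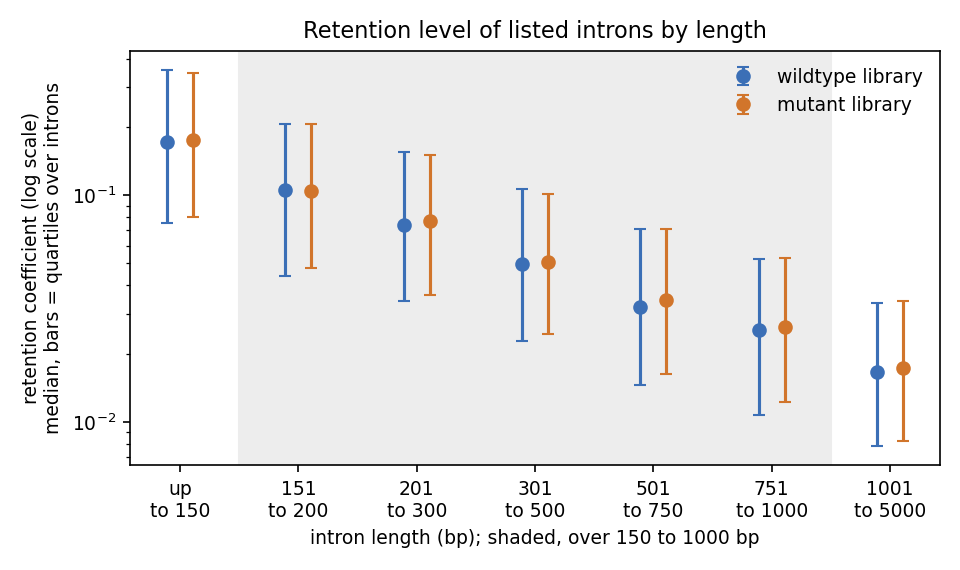
Median retention coefficient (log axis, no unit) of listed introns with a gene value by intron length in bp, for the wildtype library (blue) and the mutant library (orange), with bars from the lower to the upper quartile over introns. The medians step down from 0.105 at 151 to 200 bp to 0.0253 at 751 to 1000 bp in wildtype, and the mutant medians lie beside them.

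Few introns of this length were covered like exons. A coefficient over 0.5 was found for 335 introns (2.82%) in wildtype and 314 (2.64%) in the mutant, against 3.96% and 3.76% of all introns, 15.6% and 14.7% of introns of up to 150 bp, and 0.411% and 0.467% of those of 1001 to 5000 bp. Of the introns with a gene value, 70 were over 1 in both libraries. The highest mean level belonged to an intron of klhl31, a kelch-like gene of striated muscle, with 25.8 in wildtype and 43.6 in the mutant. That intron has 4 unique bases of its 214 bp, so its level rests on a very short length. The intron of palm3, a paralemmin, with 7.78 and 7.0, has 19 unique bases of 186 bp, and that of fnip1, a folliculin-interacting protein, with 3.92 and 5.43, has 79 of 292 bp. The fnip1 intron also overlaps another listed intron, so its reads may belong to either. The other 3 of the 6 highest were unique over their whole length. The intron of ncapd2, a condensin subunit, had 9.29 and 8.27 from 515 and 450 reads. The intron of riok2, a kinase of small ribosomal subunit maturation, had 4.06 and 3.33, and that of uraha, an enzyme of uric acid breakdown, had 3.11 and 2.89. None of these 6 was called changed in the mutant library, and their log2 retention ratios ran from -0.29 to 0.75. The klhl31 intron, at 0.75, differed beyond counting error, with an adjusted p of 9.75e-06 by Fisher's exact test. Its 188 wildtype and 243 mutant reads were listed for 4 unique bases, and whether they measure retention of this intron was not tested. The difference stayed below the 2-fold asked of a call.

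The 5 introns with most reads lay in genes of a parvalbumin, actins and a creatine kinase. An intron of 635 bp in pvalb2, a parvalbumin of muscle, held 17085 wildtype and 18347 mutant reads, at a coefficient of 0.124 and 0.137. Introns of 281 bp and 771 bp in actc1b, an actin of striated muscle, held 7115 and 5844 reads and 5281 and 4879 reads, at 0.0838 and 0.0734 and at 0.0229 and 0.0226. An intron of 793 bp in ckma, muscle creatine kinase, held 3920 and 3312 reads, at 0.0847 and 0.0792. These 4 introns differed by 1.14-fold or less between the libraries relative to their genes. The 288 bp intron of actb2, a cytoplasmic actin, held 6174 and 3206 reads, with 206585 and 146064 gene reads. Its log2 retention ratio was -0.45, 1.36-fold lower in the mutant (1.3 to 1.42). That is beyond counting error, with an adjusted p of 1.24e-42 by Fisher's exact test, and below the 2-fold asked of a call. The 4 other tested introns of actb2 had log2 ratios from -0.037 to 0.11.

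Change between the libraries was measured on intronic reads relative to the reads of the same gene, as the log2 of mutant over wildtype with 0.5 added to each count. Gene reads throughout are numbers recovered from the gene values, which can be too low by a common factor in both libraries. An intron was called higher or lower in the mutant library at an adjusted p under 0.05 by Fisher's exact test and at least 2-fold. Of the 3528 tested introns of 151 to 1000 bp, 97 in 94 genes were called higher (2.75%, exact 95% binomial interval over introns 2.24 to 3.34%) and 42 in 42 genes lower (1.19%, 0.859 to 1.61%). Over all 20223 tested introns 2.92% were called higher and 1.46% lower, so the shares at this length were near those of the whole table. Higher calls were 69.8% of the calls at this length. With the library total as the scale in place of gene reads, 127 were called higher and 100 lower (3.89% and 2.47% of all tested introns), so that higher calls were 55.9%. With TMM factors, and likewise with the median ratio of gene reads, 109 were higher and 111 lower (3.4% and 2.82% of all tested introns), or 49.5%. With the library total, 87 of the 97 higher calls and 25 of the 42 lower calls were made again, none with the opposite sign.

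The median intron had nearly the same retention in both libraries. The median log2 ratio was 0.0052 (-0.020 to 0.026 from order statistics over introns), with quartiles of -0.40 and 0.40, beside 0.030 over all tested introns. Without the test, 252 (7.14%) were higher by 2-fold or more and 224 (6.35%) lower, against 8.09% and 6.52% of all tested introns. At 4-fold the directions parted, with 56 (1.59%) higher and 18 (0.51%) lower, against 1.57% and 0.524% of all. At 8-fold, 22 called introns were higher (0.624%) and 0 lower, against 0.633% and 0.0346% of all, so these shares too were near those of the whole table. The introns called higher had a median of 7 wildtype and 33 mutant reads, and their median coefficient went from 0.0283 to 0.159. Those called lower had 33 and 9.5 reads and went from 0.131 to 0.0362. The genes with introns called higher had a median log2 gene ratio of -0.018 and those with introns called lower 0.16, beside 0.041 over all genes with a tested intron of this length. Calls were made relative to gene reads, so a contrast in this direction partly follows from the calling rule. It is not read as a result about the genes. The coefficients of called introns likewise differ because the introns were picked for that change.

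**Figure D2:**
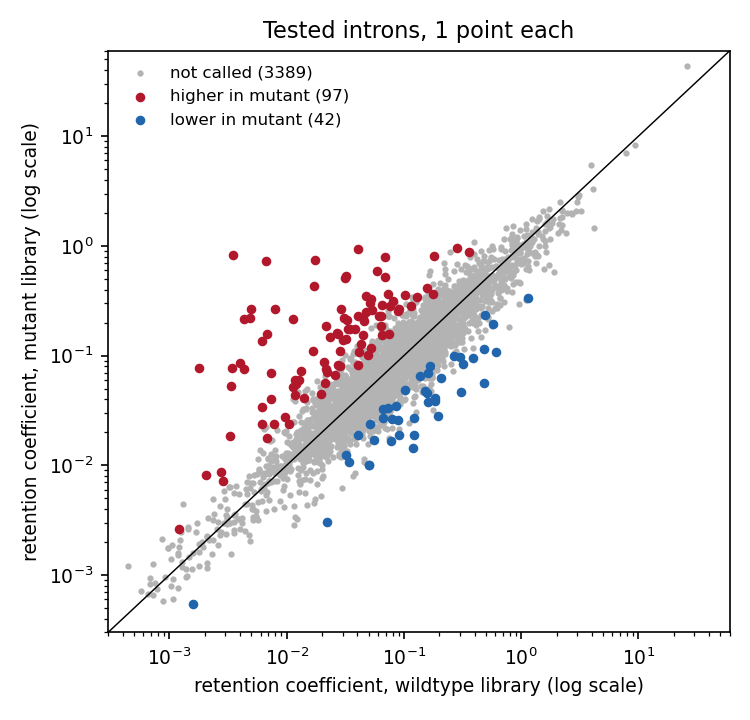
Retention coefficient of each of the 3528 tested introns of 151 to 1000 bp in the mutant library against the wildtype library (both axes log, no unit), with the line of equal values, 97 introns called higher in red and 42 called lower in blue. Most introns lie along the line, and the red points reach farther from it than the blue ones.

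Within the range, the share called higher was larger in longer introns, which is given as a description and was not tested, and the share called lower showed no such order. The share called higher was 5 of 491 at 151 to 200 bp (1.02%, 0.331 to 2.36%), 14 of 587 at 201 to 300 bp (2.39%), 23 of 838 at 301 to 500 bp (2.74%), 27 of 876 at 501 to 750 bp (3.08%) and 28 of 736 at 751 to 1000 bp (3.8%, 2.54 to 5.45%). The shares called lower were 1.02%, 1.70%, 0.835%, 1.37% and 1.09%. Neighbouring classes overlap in their intervals, and only the ends of the range are apart for higher calls. Outside the range, 1.32% of introns of up to 150 bp and 3.37% of those of 1001 to 5000 bp were called higher, and 1.68% and 1.6% lower. Right inside the lower limit, at 151 to 160 bp, 2 of 115 introns were called higher, and right outside it, at 141 to 150 bp, 0 of 113. Right inside the upper limit, at 991 to 1000 bp, 2 of 39 were called higher, and at 1001 to 1010 bp 0 of 23.

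**Figure D3:**
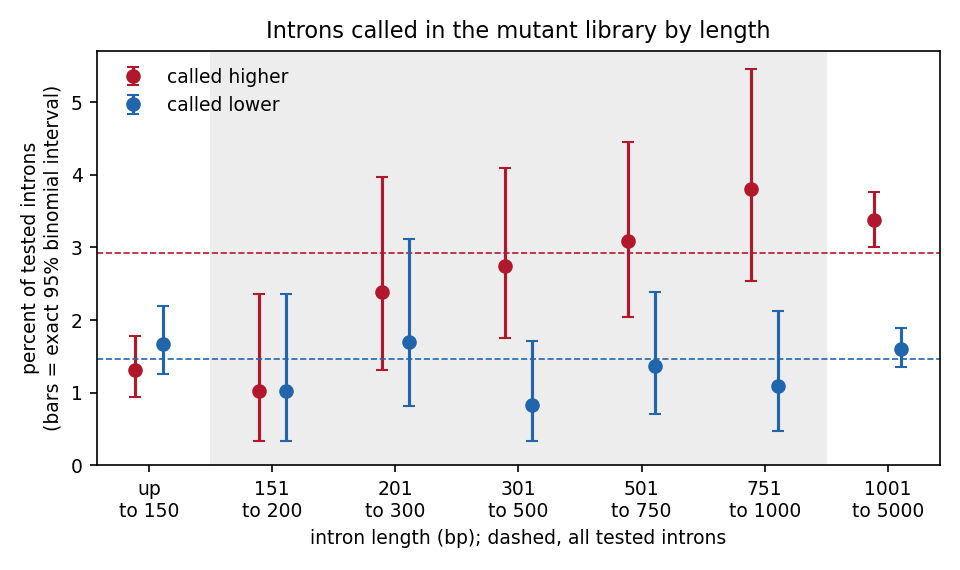
Percent of tested introns called higher (red) and lower (blue) in the mutant library by intron length in bp, with exact 95% binomial intervals over introns and, dashed, the percent over all tested introns. Higher calls go from 1.02% at 151 to 200 bp to 3.8% at 751 to 1000 bp, and lower calls stay between 0.835% and 1.70% within the range.

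The largest rise was in pdpk1b, the gene of a kinase that phosphorylates AKT. Its intron of 406 bp (chromosome 24, 38832437 to 38832842 on Zv9, listed intron 4 of 13) had 1 wildtype read and 139 mutant reads, while the gene had 421 and 251. The coefficient went from 0.00351 to 0.818, a log2 ratio of 7.28. The odds ratio of intronic to gene reads was 232 (40.4 to 9295, an exact 95% interval that covers counting error of both), with an adjusted p of 1.21e-46 by Fisher's exact test. In the mutant library this intron was thus covered nearly as densely as the exons of its gene. Of the 6 other tested introns of pdpk1b, which were of other lengths, the 3159 bp intron next to it went from 11 to 117 reads (log2 4.10) and the 2007 bp intron on its other side from 11 to 26 (log2 1.95), both called higher. The last listed intron, of 2042 bp, went from 68 to 15 reads and was called lower (log2 -1.40).

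Rises in insig1, spcs3 and srp68 also started from few wildtype reads. The intron of 799 bp in insig1, whose protein holds the sterol sensor SCAP in the endoplasmic reticulum (chromosome 7, 43742165 to 43742963, listed intron 3 of 5), had 7 and 342 reads, the most mutant reads of the 22 rises of at least 8-fold. Its coefficient went from 0.0176 to 0.746, with an odds ratio of 42.4 (20.2 to 107) and an adjusted p of 2.25e-68 by Fisher's exact test. The 3 other tested introns of insig1 stayed between -0.36 and 0.15 on the log2 scale. In spcs3, a subunit of signal peptidase, the first of 2 listed introns (876 bp, chromosome 1, 39173478 to 39174353) had 2 and 73 reads, with an odds ratio of 45.1 (11.9 to 382). The other listed intron of spcs3, of 1699 bp, had 14 and 39 reads and was called higher too (log2 1.75). In srp68, of the signal recognition particle, the first of 11 listed introns (376 bp) had 1 and 26 reads, with an odds ratio of 23.5 (3.84 to 963). All 3 kept their call when scaled by the library total.

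The rise in selenoe, which codes for a selenoprotein found in fish, went with a lower gene level. Its intron of 243 bp (chromosome 5, 12490108 to 12490350) had 3 and 33 reads, while the gene had 1591 and 326. The coefficient went from 0.00498 to 0.267, a log2 ratio of 5.54, and scaled by the library total the log2 ratio was 3.40 (adjusted p = 1.52e-06 by an exact binomial test). The intron was called higher on both scales, and its own reads rose while those of the gene were lower. A gene listed as NM_199877, without a symbol, had a like pattern. Its first listed intron of 820 bp (chromosome 12, 19570274 to 19571093) had 1 and 49 reads with 501 and 225 gene reads, and its other tested intron had 14 and 6 reads (log2 -0.0044).

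Further large rises were in suds3, kpnb3 and 5 other genes. In suds3, a subunit of the Sin3 histone deacetylase complex, an intron of 668 bp had 1 and 78 reads (odds ratio 48.8, 8.40 to 1964), and the next intron, of 1776 bp, had 8 and 244. In kpnb3, an importin, an intron of 699 bp had 1 and 45 reads (42.7, 7.28 to 1726), while of the gene's 2 other tested introns one of 547 bp had 42 and 47 and one of 1077 bp had 9 and 36 and was called higher (log2 1.87). The gene listed as NM_001003847 had its last listed intron, of 572 bp, at 4 and 78 reads (24.9, 9.32 to 93.9), and an intron of 2289 bp at 12 and 537. The remaining 4 of the 12 largest rises were in ccdc43 (5 and 63 reads), atp6v1aa, the catalytic subunit of the vacuolar proton pump (3 and 55), ddx18, a DEAD-box RNA helicase (2 and 36), and zgc:77375 (1 and 27). In all 12 the mutant library held more intronic reads than the wildtype library by at least 11 to 1, and the least of the lower interval limits was 5.42. The 12 were picked as the largest called rises. Limits above the 2-fold asked of a call therefore largely follow from the choice and are not further evidence, and odds ratios picked this way tend to be too large.

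**Figure D4:**
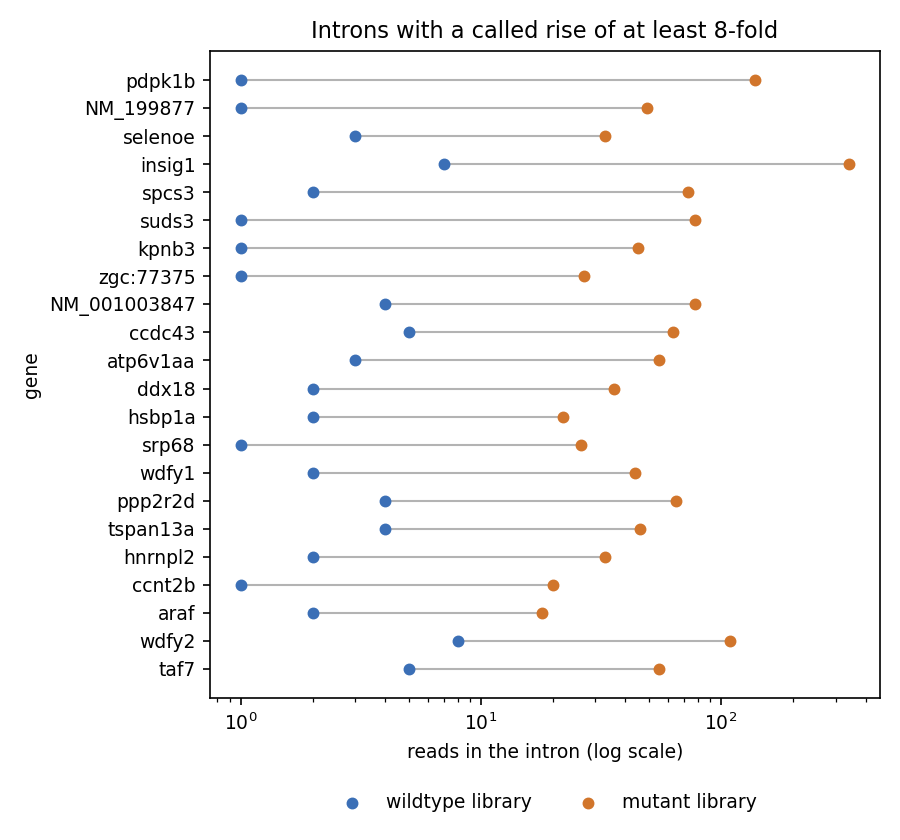
Reads in the wildtype library (blue) and the mutant library (orange) for the 22 introns of 151 to 1000 bp with a called rise of at least 8-fold relative to the gene (log axis of read number), 1 intron a row, ordered by log2 retention ratio. Wildtype reads lie between 1 and 8 and mutant reads between 18 and 342.

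The other 10 rises of at least 8-fold had 18 to 109 mutant reads. They were in hsbp1a (2 and 22 reads), a binding partner of heat shock factor, srp68, wdfy1 (2 and 44), ppp2r2d (4 and 65), a regulatory subunit of protein phosphatase 2A, tspan13a (4 and 46), a tetraspanin, hnrnpl2 (2 and 33), ccnt2b (1 and 20), araf (2 and 18), wdfy2 (8 and 109) and taf7 (5 and 55), a subunit of TFIID. The introns of hsbp1a, srp68, ppp2r2d, tspan13a, wdfy2 and taf7 were named after their values were seen. Mutant coefficients reached 0.788 in araf, 0.586 in wdfy2, 0.532 in ppp2r2d and 0.507 in tspan13a. All 22 were called higher with library-total scaling as well.

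Most other tested introns of these genes had no call. Over all tested introns 2.92% were called higher and 1.46% lower. The 94 genes with an intron of this length called higher had 417 other tested introns of any length, of which 24 were called higher (5.76%) and 5 lower (1.2%), with a median log2 ratio of 0.037. Among the 90 tested introns listed right beside a called one, 16 were higher (17.8%) and 0 lower, with a median of 0.27. For the 42 genes with an intron called lower, 6 of 286 other tested introns were higher (2.1%) and 1 lower, and of 45 right beside a called one 1 was higher. In ppp2r2d the 1 other tested intron had a log2 ratio of 2.83 and was called higher too, and in araf it had 3.77. In atp6v1aa none of 5 others was called, with log2 ratios from -0.66 to 0.50.

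**Figure D5:**
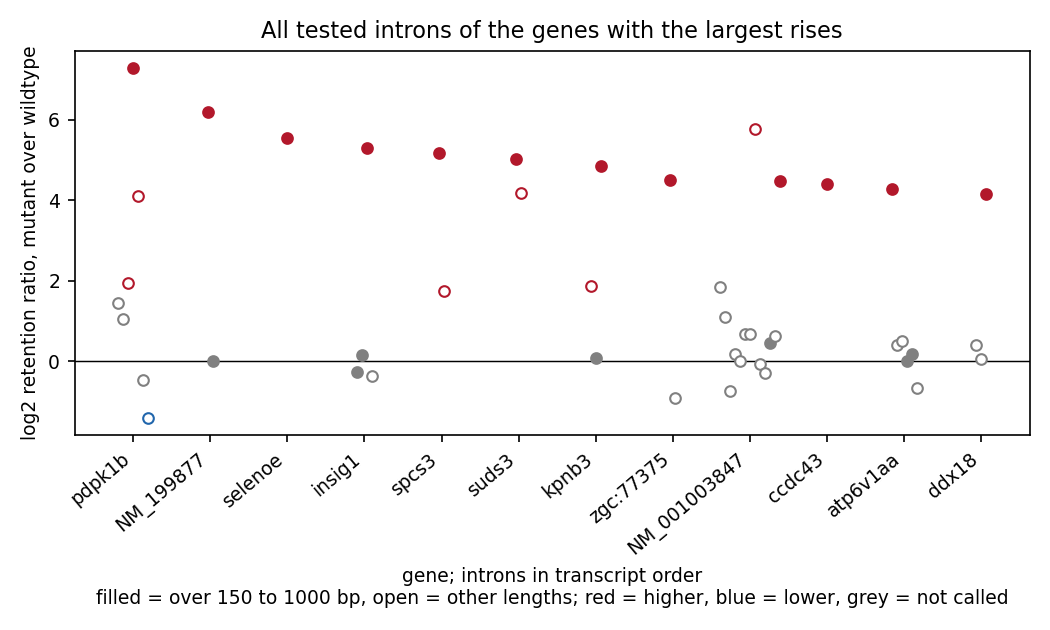
Log2 retention ratio (mutant over wildtype) of every tested intron in the 12 genes with the largest rises, in transcript order within each gene, filled for introns of 151 to 1000 bp and open for other lengths, red for higher, blue for lower and grey for not called. The named introns reach from 4.15 in ddx18 to 7.28 in pdpk1b. In insig1, atp6v1aa and ddx18 the other tested introns lie between -0.66 and 0.50, and none was called.

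The falls were smaller and rested on few mutant reads. The 8 largest called falls had 18 to 50 wildtype reads and 2 to 5 mutant reads, and log2 ratios from -2.90 to -2.21. The largest was in peli1b, a Pellino ubiquitin ligase (220 bp, chromosome 17, 24314339 to 24314558), with 24 and 3 reads and a coefficient of 0.477 and 0.0561. Its odds ratio, wildtype over mutant, was 8.50 (2.56 to 44.4), with an adjusted p of 0.000993 by Fisher's exact test. The others were in kdm4b, a histone demethylase (18 and 2 reads), lrrfip2 (31 and 5), crybgx, a crystallin of the beta and gamma family (50 and 3), abi3bpb (21 and 3), stac3, a muscle protein of excitation and contraction coupling (21 and 3), nup98, a nucleoporin (25 and 5), and col11a2, a collagen chain (19 and 4). The fall in col11a2 was not called with library-total scaling (adjusted p = 0.0538 by an exact binomial test). The intron of lrrfip2 overlaps another listed intron, so reads may belong to either. In each of these 8 genes the other tested introns held no call in either direction.

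A list of genes with a known or likely U12-type intron held 8 higher calls at this length and 0 lower calls. Of its 108 symbols, 16 had a tested intron of this length, and 8 of their 30 introns in 7 genes were called higher, with a median log2 ratio of 0.42 and 23 of 30 above 0. Over all tested introns of this length 2.75% were called higher and 1.19% lower, and the median was 0.0052. Of 143 tested introns of other lengths in genes of the list, 45 were called higher and 1 lower, beside 2.95% and 1.52% of all tested introns of other lengths. The list comes from background knowledge with earlier results of these data known, and insig1, ssu72 and others on it were known to move, so its count is not independent evidence. Besides insig1, the higher calls at this length were in wdfy1 (log2 3.94), ccnt2b, a cyclin of the elongation factor P-TEFb (log2 3.58), and araf, a RAF kinase (log2 3.23). Others were in smyd2a, a lysine methyltransferase (10 and 40 reads, log2 1.75), and ssu72, a phosphatase of RNA polymerase II (21 and 44, log2 1.33). The proteasome ATPase gene psmc4 had 2 such introns (103 and 224, log2 1.28, and 37 and 74, log2 1.15). Without the genes on the list, 89 of 3498 introns of this length were called higher (2.54%), so most of the higher calls were in genes not on it. No intron class was read, and whether those genes hold a U12-type intron was not tested. The introns of smyd2a, ssu72 and psmc4 were named after their values were seen.

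The gene mutated in clbn itself has 1 listed intron of this length, 184 bp at chromosome 24, 29885743 to 29885926. It had 1 wildtype and 8 mutant reads, with a coefficient of 0.0337 and 0.675, which is under the 20 reads asked of a test. Of the minor spliceosome list, 12 of 13 listed introns of this length were not tested. The 1 tested was in dis3l (14 and 8 reads, log2 -0.82, not called), known as a ribonuclease of the cytoplasmic exosome and not as a minor spliceosome protein. No other gene of that list had a tested intron of this length.

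Lists of splicing and decay genes held few calls at this length. Over all tested introns of this length 2.75% were called higher and 1.19% lower, and nothing is read from counts this small. Of 30 tested introns in genes of the major spliceosome, 0 were higher and 2 lower, with a median log2 ratio of -0.23, which turned to 0.083 with library-total scaling. The 2 were in prpf8, a core protein of the U5 particle (19 and 5 reads, log2 -2.0), and snrpa1, a protein of the U2 particle (19 and 9, log2 -1.70). Neither was called with library-total scaling, where the adjusted p was 0.0970 and 0.385 by an exact binomial test. Of 47 introns in genes of SR proteins and hnRNPs, 2 were higher, in hnrnpl2 (2 and 33 reads, log2 3.68) and srsf10b (4 and 19, log2 2.16), and 0 lower, with a median of 0.060. Of 10 in nonsense-mediated decay and exon junction genes, 1 was lower, in gspt1l, a release factor (54 and 22, log2 -1.27).

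The larger lists of ribosomal, muscle and chaperone genes held 0 or 1 call each. Over all tested introns of this length 2.75% were called higher and 1.19% lower. Whether these lists held fewer calls than such shares would give was not tested, and nothing is read from these counts. Of 117 introns in 60 ribosomal protein genes 0 were called, their median log2 ratio was 0.030, and the farthest were in rpl24 (13 and 30 reads, log2 1.27, adjusted p = 0.0750 by Fisher's exact test) and rpl21 (21 and 39, log2 0.96). The rpl24 intron overlaps another listed intron. Some ribosomal introns differed beyond counting error at under 2-fold, in both directions. Among them were introns of rps2 (991 and 1399 reads, log2 0.55) and rpl3 (436 and 212, log2 -0.78). Their adjusted p was 4.79e-17 and 5.66e-09 by Fisher's exact test. Of 66 introns in 35 muscle genes 0 were called, with a median of 0.043. The farthest were in tnnt3a, a fast troponin T (7 and 19), and actn3b, an actinin (9 and 22). Here too some differed beyond counting error at under 2-fold. Examples are introns of myhz1.2 (61 and 119, log2 0.96) and actc1b (7115 and 5844, log2 -0.19). Their adjusted p was 0.000713 and 1.65e-11 by Fisher's exact test. Among 44 introns in chaperone genes 1 was lower, in hspa8, the constitutive HSP70 (58 and 18 reads, log2 -1.52), with a median of 0.010. None of 13 introns in genes of replication and mitosis was called, the farthest being in ccnb1, cyclin B1 (33 and 23), and mcm7, a subunit of the replicative helicase (16 and 10). Of 8 in sterol genes the insig1 intron was the 1 called.

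For pancreas and lens genes the values depended on the scale. Over all tested introns of this length 2.75% were called higher and 1.19% lower, and nothing is read from the number of calls in lists this small. Of 21 introns in genes of exocrine pancreas enzymes 0 were called relative to gene reads, and the median log2 ratio was 0.016, but -1.56 with library-total scaling. The farthest were in cel.2, a lipase (25 and 13 reads, log2 1.18, and -0.78 with library-total scaling), and cpa1, a carboxypeptidase (30 and 4, log2 -1.13, and -2.62 and called lower with library-total scaling). Of 13 introns in lens genes 1 was called higher, in cryba2a, a crystallin (31 and 33 reads with 5835 and 2731 gene reads, log2 1.18). With library-total scaling its log2 ratio was 0.23 and it was not called, so the call rests on the lower gene reads. The crystallin gene crybgx, whose intron of 729 bp was called lower, is not on the list. The list's median was 0.21 and, with library-total scaling, -0.99.

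Reads were also summed over each gene's introns of this length, which narrows the spread of ratios by construction. Of 742 genes with 2 or more tested introns of this length, 16 were higher by 2-fold or more (2.16%) and 5 lower (0.674%). The median log2 ratio was 0.013. Such sums were not made for introns of other lengths. These shares therefore have no whole-table share beside them and are not read as particular to this length. The largest summed rises were in NM_199877 (15 and 55 reads, log2 2.99), insig1 (42 and 380, log2 2.96), NM_001003847 (16 and 91, log2 2.83), drap1, a transcriptional corepressor (12 and 64, log2 2.44), dnm2b, a dynamin (11 and 36, log2 1.75), and acvr1l, a BMP type I receptor (10 and 35, log2 1.75). In the first 3 a single intron carried the rise, while both tested introns of drap1 were called higher (6 and 38 reads, and 6 and 26). Only drap1, psmc4 and hdlbpa, an RNA-binding protein named after its values were seen, had 2 introns of this length called higher, and 0 genes had 2 called lower.

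The largest summed falls were near 2-fold. They were in mob4 (34 and 14 reads, log2 -1.13), rpe65a, the isomerase of the visual cycle (55 and 17, log2 -1.09), pwp1 (27 and 14, log2 -1.06) and crybgx (113 and 24, log2 -1.04). The counting interval of the odds ratio, wildtype over mutant, came down to 1.16 for mob4, 1.22 for rpe65a, 1.04 for pwp1 and 1.33 for crybgx. In crybgx 1 of 3 introns was called, and in the other 3 genes none.

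Collagen genes had most tested introns of this length and showed how introns of 1 transcript vary. In col1a1b, a chain of type I collagen, 19 were tested, with 1980 wildtype and 2129 mutant reads in all and a summed log2 ratio of 0.099. Wildtype coefficients within this gene ran from 0.0028 to 0.218, and log2 ratios from -0.51 to 1.62, with 1 intron called higher. In col11a1a 12 were tested (628 and 563 reads, log2 -0.19), in col11a2 11 (196 and 231, log2 0.14) and in col1a1a 9 (442 and 488, log2 0.086). In dync1h1, the heavy chain of cytoplasmic dynein, 9 were tested (261 and 220, log2 -0.092). Summed over introns, all 5 genes differed by 1.14-fold or less between the libraries.

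Calls differed by the strand of the gene. Of the introns of this length 4166 were in plus strand genes and 7848 in minus strand genes, and 20.6% and 34.0% of them were tested. The wildtype median coefficient was 0.0254 on the plus strand and 0.0593 on the minus strand. Over introns of all lengths 31% and 40.7% were tested, and these medians were 0.0172 and 0.0368. The gap in coverage and level was thus not particular to this length. Of 858 tested plus strand introns 39 were called higher (4.55%, 3.25 to 6.16%) and 9 lower (1.05%), and of 2670 on the minus strand 58 were higher (2.17%, 1.65 to 2.80%) and 33 lower (1.24%). The strands also differed over all lengths, with 3.84% and 2.5% called higher. Whether strand was used in counting is not given in the sources used here, and the part of reads from overlapping genes was not tested. In genes with 3 or more listed introns, 17 of 399 tested introns at the 5′ end of the list were called higher (4.26%, 2.5 to 6.73%). At the 3′ end 8 of 461 were called higher (1.74%, 0.752 to 3.39%), and between the ends 66 of 2460 (2.68%). The intervals of the ends overlap. The shares called lower were 0.752%, 1.3% and 1.26% in that order. Shares by position were not made for introns of other lengths, so these are not read as particular to this length. The wildtype median coefficient of the tested introns was 0.0456 at the 5′ end, 0.124 at the 3′ end and 0.0754 between. Their median lengths were 559, 426 and 452 bp in that order, and the part of length in these differences was not tested. On chromosome 24, which carries rnpc3, 3 of 86 tested introns of this length were called higher (3.49%) and 1 lower (1.16%). The shares on the other chromosomes were 2.73% and 1.19%. Over all tested introns on chromosome 24, of any length, they were 3.94% and 3.12%, beside 2.92% and 1.46% over all tested introns of the table. The cause of this difference was not tested.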

How the data were processed

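Whole larvae of 2 groups were sequenced, 1 pooled library each, and groups were taken from the genotype labels. Per the submitters' processing notes the build was Zv9. No aligner, counting tool or strand setting is given in the sources used here. Counts deposited by the authors are whole reads per intron, not normalized. Per the file headers they also gave RPuKM, a form of RPKM per unique intron length, its log2 values, fold change (ratio) columns and a gene value without a unit. The authors' log2 and fold columns were not used for any result. The deposited retention coefficient equals RPuKM over the gene value, and is the score used as the level. Library sizes were recovered from counts, lengths and RPuKM. Gene reads were recovered as the smallest whole solution of the gene values (within 0.0001 reads), which can be too low by a common factor in both libraries. That widens intervals, weakens tests, and gives pvalb2 fewer gene reads than intronic reads. Printed starts are the table's starts plus 1. Symbols came from a RefSeq table of GRCz12tu, used for names, and matched 5624 of 5872 gene IDs (95.8%).

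Introns under 1 Refseq ID with a gene value and 20 or more reads over both libraries were tested by Fisher's exact test (two-sided, scipy 1.17.1) with Benjamini-Hochberg adjustment over all 20223. A call needed an adjusted p under 0.05 and 2-fold, with a pseudocount of 0.5. Scaling by library totals used an exact binomial test, and TMM factors came from edgeR 4.0.16. Calls and recovery were checked on simulated data. The simulated reads held counting error alone, without spread between pools or amplification. They therefore check the code and not how often pools of 1 genotype would give a call. The recovery check also accepted gene reads too low by a common factor. Intervals are 95%. Reads amplified without molecular identifiers are not independent molecules, so intervals cover counting error alone, and those of shares and medians take introns as independent.

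The members, gene lists and tests were chosen with earlier results of these data known. Named introns were the 12 largest called rises and 8 largest called falls, the 6 highest levels, the 5 with most reads, and called introns of 12 gene lists (at most 4 a list, or the 2 farthest where none was called). Named genes were the 6 largest and 4 smallest summed ratios and the 5 with most tested introns. Others are marked where named.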

Additional observations from a re-analysis of the deposited data

How the results depend on the processing

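No paired analysis was possible because each genotype has 1 library, and for the same reason none could leave out a replicate. Depth limits what could be tested, since 29.4% of introns of 151 to 1000 bp reached 20 reads. With a minimum of 5 reads the share called higher was 0.97% and called lower 0.33% of 9690 introns, and with no minimum 0.765% and 0.235% of 11898. The number of higher calls then was 94 and 91 beside 97. With a minimum of 5 reads 15.3% were at least 2-fold higher and 14.4% lower, and 3.74% and 2.66% at 4-fold. With no minimum these shares were 15.2%, 13.5%, 3.13% and 2.2%, with a median log2 ratio of 0.036. With a minimum of 50 reads they were 3.12%, 1.63%, 0.923% and 0.142%. A pseudocount of 5 gave 4.25%, 2.52%, 0.68% and 0.0283%.

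Scaling changed the lower calls. They were 2.83% with the library total, 3.15% with the median ratio of gene reads, 3.15% with TMM factors and 2.92% with introns of several Refseq IDs kept and scaled by the library total. Falls of at least 4-fold were 0.85%, 0.935%, 0.935% and 0.882% under these settings, and the median log2 ratio was 0.028, -0.026, -0.024 and 0.028. In plus strand genes alone 4.55% were called higher and 3.73% rose at least 4-fold, and in minus strand genes 0.899% rose at least 4-fold. The cause was not tested.

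The median coefficient was 0.0756 in wildtype and 0.0775 in the mutant with a minimum of 20 reads, 0.0795 and 0.0879 with 50 reads, 0.0485 and 0.0503 in wholly unique introns, and 0.0421 and 0.0442 in genes with 100 or more reads.

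Of 56 named introns a pseudocount of 5 changed no call or direction. With library-total scaling 4 changed sign, none of them called, namely riok2 (log2 0.10), uraha (0.21), the 771 bp intron of actc1b (0.02) and cel.2 (-0.78). With it 4 lost their call (col11a2, prpf8, snrpa1 and cryba2a) and cpa1 gained one. After the data were seen, leaving out chromosome 24 and leaving out the U12 list were added, and neither moved a share of calls by over 1.5 times.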

Other observations

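Introns whose length is a multiple of 3 leave the reading frame unshifted if retained, unless they hold a stop codon. Of the 12014 introns of 151 to 1000 bp, 33.2% had such a length, and 33 of the 97 called higher (34.0%) and 13 of the 42 called lower (31.0%) did. Among tested introns of this length, 2.89% of those with a multiple of 3 were called higher, 3.15% with a remainder of 1 and 2.23% with a remainder of 2.

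By length class, 1.71% of plus strand and 0.802% of minus strand introns were called higher at 151 to 200 bp, 4.76% and 1.59% at 201 to 300 bp, and 4.15% and 2.25% at 301 to 500 bp. At 501 to 750 bp the shares were 5.88% (2.97 to 10.3%) and 2.32% (1.33 to 3.74%), and at 751 to 1000 bp 5.26% (2.55 to 9.47%) and 3.3% (1.97 to 5.16%). The intervals of the strands overlap in these classes, and at up to 150 bp the shares were 1.23% and 1.34%, with the plus strand not above the minus strand. The cause of the difference was not tested. Of 116 introns of this length without a gene value, 0 had 20 or more reads over both libraries.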
